A study of Mus musculus with 10 samples.

Results

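Trace amine-associated receptors (Taar genes) are a small family of G protein-coupled receptors of the nose. The members described here are the 10 rows of the authors' deposited results table whose gene name is Taar2, Taar3, Taar4, Taar5, Taar6, Taar7a, Taar7b, Taar7d, Taar8c or Taar9, out of 24421 genes in that table. Poly(A)-selected RNA of whole olfactory epithelium was sequenced from untreated mice aged 6 months on the C57BL/6 background, in 6 libraries labelled Apoe4 and 4 libraries labelled Apoe3. Both names stand for human forms of apolipoprotein E, which carries lipids between cells. Both groups carry a human allele, and no group without one was compared. The labels say neither how the alleles were introduced nor which sex the mice were.

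Apart from Taar1, the Taar genes of the mouse are used as olfactory receptors. An olfactory sensory neuron that expresses a Taar gene normally expresses no odorant receptor (Olfr) gene, and most such neurons lie in the dorsal part of the epithelium. Taar receptors detect volatile amines, and are thought to signal through the same G protein, adenylyl cyclase and cyclic nucleotide-gated channel as odorant receptors. Taar2 to Taar4 belong to the branch of the family that mostly recognises primary amines. Taar5 to Taar9 belong to the branch that mostly recognises tertiary amines.

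All 10 members lie in a single cluster on chromosome 10 (GRCm38), which spans 189 kb from the first base of Taar1 to the last base of Taar9. Along it, Taar2 (chr10:23938572-23941583) comes first, followed by Taar3, Taar4, Taar5 (chr10:23970706-23971719), Taar6 (chr10:23984609-23985646), Taar7a, Taar7b, Taar7d, Taar8c and Taar9 (chr10:24108488-24109534). Taar6, Taar7a, Taar8c and Taar9 lie on the minus strand and the other 6 members on the plus strand. Each is a protein-coding gene with a single coding exon, except Taar2, whose annotated transcript has a short first exon and a long second one. Transcripts annotated by GENCODE vM21 are 1014 to 1077 bases long and hold essentially the coding length alone. Reads from untranslated parts of these genes may therefore not have been counted.

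The Taar7 genes are near-copies of one another, and so are the Taar8 genes, which limits how well reads can be assigned to them. The following lines show the longest stretch shared by any pair of members, from positions 832 to 1013 of the coding sequence. Taar7a (chr10:23992469-23992650, minus strand) and Taar7b (chr10:24000770-24000951, plus strand) were identical over these 182 bases, more than the read length of 150 bases. Taar7d (chr10:24028053-24028234, plus strand) differed from both at 3 bases, shown in capitals.
Taar7a and Taar7b: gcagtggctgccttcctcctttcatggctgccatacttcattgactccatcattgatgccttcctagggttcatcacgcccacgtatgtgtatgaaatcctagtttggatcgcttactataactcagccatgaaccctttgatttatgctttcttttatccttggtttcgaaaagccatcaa
Taar7d: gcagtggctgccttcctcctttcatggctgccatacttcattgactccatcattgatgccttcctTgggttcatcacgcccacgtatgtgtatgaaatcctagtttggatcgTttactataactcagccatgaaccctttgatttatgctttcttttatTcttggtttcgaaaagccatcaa

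Taar8c was closer still to Taar8a, a Taar gene outside the 10 members. Their first 326 coding bases were identical, and they differed at 20 of 1035 positions (98.1% identity). The lines below show the end of that identical run, positions 287 to 366 of Taar8c (chr10:24101547-24101626, minus strand) and of Taar8a (chr10:24076786-24076865, plus strand), with the differing bases in capitals.
Taar8c: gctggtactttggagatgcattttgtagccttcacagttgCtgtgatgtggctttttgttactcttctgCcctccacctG
Taar8a: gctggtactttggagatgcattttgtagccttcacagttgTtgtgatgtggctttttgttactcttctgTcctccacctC

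Counted over every stretch of 150 bases, 30.5% of the Taar8c transcript recurred exactly in another gene, Taar8a or Taar8b. The share was 3.56% for Taar7a and for Taar7b and 2.91% for Taar7d. It was 0 for the other 6 members, Taar2 to Taar6 and Taar9, so reads within their coding exons were unique to them at this length. Over the whole coding sequence Taar7a and Taar7b were 93.1% identical, Taar7a and Taar7d 93.5%, and Taar7b and Taar7d 94.0%. How the authors' counting treated reads that fit several copies is not stated, so the values of Taar7a, Taar7b, Taar7d and Taar8c are uncertain.

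RefSeq (GRCm38.p6) start windows, 250 bases before to 50 bases after the annotated start, were at hand for 8 of the 10 members. In all 8 the annotated start is the start codon, so the window need not reach the true promoter. Taar9 and Taar6, which had the highest and the lowest fold changes of the members tested, are shown from 60 bases before to 10 bases after that start (chr10:24109525-24109594 and chr10:23985637-23985706, both minus strand). Capitals mark the 6 letters CAATTA, the reverse complement of TAATTG, a core sequence bound by homeodomain proteins.
Taar9: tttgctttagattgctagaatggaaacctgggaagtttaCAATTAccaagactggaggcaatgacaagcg
Taar6: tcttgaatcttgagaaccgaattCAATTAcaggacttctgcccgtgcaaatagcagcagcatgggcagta

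TAATTG was found, on either strand, in the windows of Taar6, Taar7b and Taar9, which is 3 of 8, at 37, 45 and 21 bases before the start codon. It was present in 8.0% of all 32851 RefSeq windows and in 23.2% of the 944 Olfr windows. TAATTA was in none of the 8 Taar windows, 5.29% of all windows and 18.6% of Olfr windows. CCCNNGGG, the core of the site bound by Ebf proteins, was likewise in none of the 8, 13.7% of all windows and 3.07% of Olfr windows. Windows of all genes and of Olfr genes need not be placed at a start codon, so these shares may compare unlike windows. The first and second motifs share 5 letters and could overlap in part. These are matches of letters, shown for the receptors whose fold changes lay farthest apart in opposite directions, and no binding was measured.

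The authors deposited a mean normalized count per gene over all 10 libraries (reads divided by a size factor), with no spread. Expressed per kilobase of transcript, Taar9 had the highest mean level, at 94.3 normalized counts per kb in the authors' deposited table. In descending order of the same level it was followed by Taar2 (76.8), Taar6 (72.4), Taar4 (69.1) and Taar7d (65.8). Below these lay Taar7a (53.5), Taar7b (49.9) and Taar3 (27.0), the receptor that responds to isoamylamine. Taar5, the receptor for trimethylamine, had 15.0 normalized counts per kb and Taar8c had 1.33. Among the 9 members tested the highest level was 6.27 times the lowest. Each library held an estimated 14900000 to 20100000 assigned reads. The estimate multiplies the summed mean counts by size factors inferred from genes that hold just 1 read. Taar8c had about 13.8 normalized counts in the 10 libraries together.

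**Figure D1:**
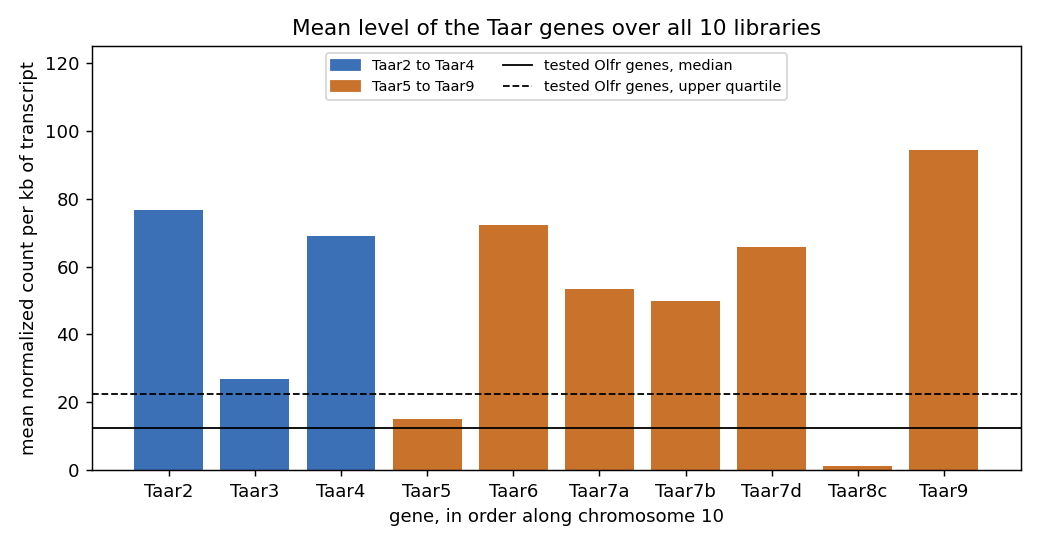
Bars give the authors' mean over all 10 libraries, in normalized counts per kilobase of transcript, for the 10 Taar genes in their order along chromosome 10; the table gives no spread for them. Lines mark the median (12.6) and upper quartile (22.6) of the tested Olfr genes, whose annotated transcripts include untranslated parts, so their scale differs. Taar9 is highest at 94.3, and Taar5 at 15.0 and Taar8c at 1.33 are lowest.

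Of the tested Olfr genes, 810 had a transcript length, with a median level of 12.6 and an upper quartile of 22.6 normalized counts per kb. In mean level per kb, 9 of the 10 Taar members lay above that median and 8 above that upper quartile. Olfr transcripts are annotated with untranslated parts (median transcript length 3226 bases) and Taar transcripts are not, so the scale differs between the families. Without division by length, the tested Olfr genes had a median of 38.0 and an upper quartile of 69.2 normalized counts. The median of the tested Taar members was 70.8 normalized counts. All 15 Taar genes of the table together made up 1.23% of the summed mean counts of Taar and Olfr genes. Omp, the defining marker of mature olfactory sensory neurons, had a mean of 113676 normalized counts in the authors' deposited table, so the labelled tissue had its marker.

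The genotype comparison asks whether any of these receptors differs between the human alleles. None of the 9 members tested passed the authors' DESeq2 Wald test (Benjamini-Hochberg adjusted p under 0.05) in either direction. By the same rule 0.779% of all 16050 genes tested were called, 0.324% higher and 0.455% lower in Apoe4. At that share, a count of 0 among 9 genes is not a result about the members. At an unadjusted p under 0.05 the count was also 0 of 9, against 10.3% of all genes tested. The count of called members stayed at 0 under the other settings, in which the share of all genes called was 0.563% (no filter on the mean), 0.619% (length trend subtracted), 0.816% (mean-count trend subtracted) and 0.715% (without X and Y genes). The first and last of these settings only adjusted the deposited p-values again. An adjusted p cannot lie below its unadjusted p, so a count of 0 was certain in those settings. Taar8c, at a mean of 1.38 normalized counts, was marked low by the authors and has no adjusted p. Its unadjusted p was 0.899 in the authors' deposited table.

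Taar6 had the lowest value: the authors' deposited table gives a log2 fold change of -0.19 (standard error 0.11; DESeq2 Wald test, p = 0.0788, adjusted p = 0.544). The authors' model shrank the folds towards 0. With the shrinkage approximately undone, the log2 fold change was -0.37 (standard error 0.21; 95% interval -0.78 to 0.04). This corresponds to group means of about 67.2 normalized counts in Apoe4 and 86.9 in Apoe3. The interval reaches past 0, and a difference was not detectable with these libraries.

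Taar9 had the highest value: the authors' deposited table gives a log2 fold change of 0.16 (standard error 0.11; DESeq2 Wald test, p = 0.118, adjusted p = 0.605). The rat form of this receptor responds to N-methylpiperidine. Its approximately unshrunken log2 fold change was 0.36 (standard error 0.23; 95% interval -0.09 to 0.81). The group means implied by this fold were about 108 normalized counts in Apoe4 and 84.5 in Apoe3. Taar9 and Taar6 thus lay on opposite sides of 0, and neither passed the threshold of the adjusted p. A test of the difference between them needs values per library and was not made.

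The remaining receptors of the tertiary amine branch stood nearer to 0 in the authors' deposited table. Taar5 had a log2 fold change of -0.09 (standard error 0.09, DESeq2 adjusted p = 0.774), and its implied means were about 13.7 normalized counts in Apoe4 and 17.6 in Apoe3. As the lowest of the tested members it was also among the least precise, with an unshrunken log2 fold change of -0.37 (95% interval -1.10 to 0.36). Taar5 and Taar6 therefore had nearly the same unshrunken fold, while the shrunken value of Taar5 was about as small as that of Taar2.

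The 3 Taar7 members had values on both sides of 0 in the deposited results, none past the test. Taar7b had a log2 fold change of 0.06 (adjusted p = 0.883), Taar7a of -0.00223 (adjusted p = 0.998) and Taar7d of -0.07 (adjusted p = 0.856) in the authors' deposited DESeq2 results. Implied means of Taar7b were about 55.9 normalized counts in Apoe4 and 50.5 in Apoe3. Those of Taar7a were 57.5 in Apoe4 and 57.7 in Apoe3, and those of Taar7d 67.3 in Apoe4 and 76.0 in Apoe3. All 3 intervals of the unshrunken folds included 0, the widest being that of Taar7d, -0.66 to 0.31 on the log2 scale. With the trend of the folds with annotated transcript length subtracted, all 3 were positive, Taar7a at 0.08, Taar7b at 0.14 and Taar7d at 0.00497.

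In the primary amine branch all 3 members had negative deposited values, none past the test. With the length trend subtracted Taar3 (0.07) and Taar4 (0.03) were positive and Taar2 was at -0.00481. Taar2 had a log2 fold change of -0.08 (adjusted p = 0.833) in the authors' deposited DESeq2 results, with implied means of about 74.6 normalized counts in Apoe4 and 83.9 in Apoe3. The authors' deposited table gives Taar4, a receptor for phenylethylamine, a value of -0.05 (adjusted p = 0.900). Its implied means were 69.9 normalized counts in Apoe4 and 75.4 in Apoe3. The same deposited table gives Taar3 a value of -0.01 (adjusted p = 0.981), with implied means of 27.5 normalized counts in Apoe4 and 28.4 in Apoe3.

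**Figure D2:**
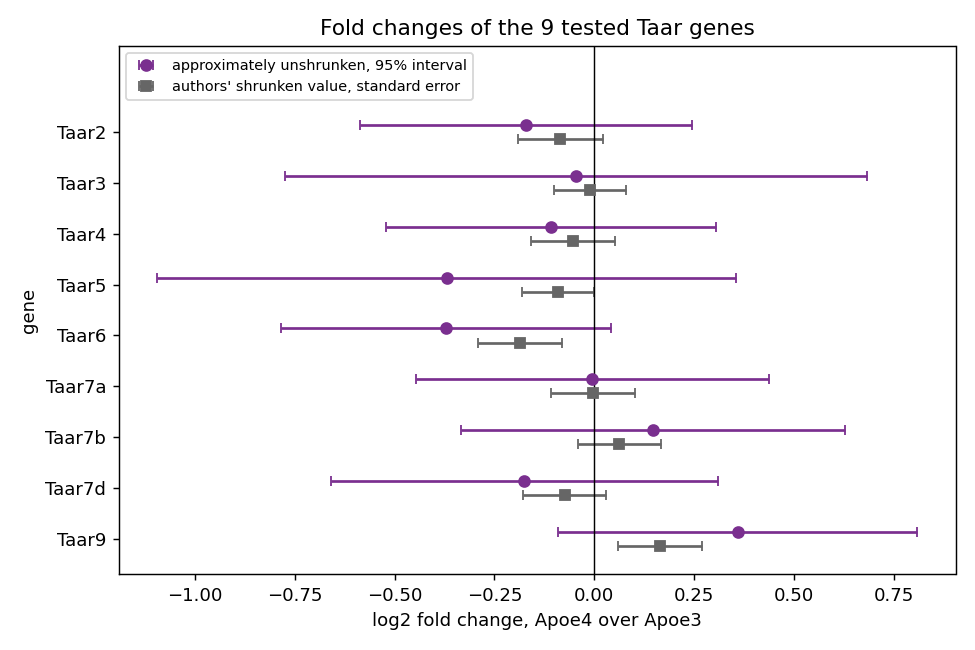
Log2 fold changes, Apoe4 over Apoe3, of the 9 tested Taar genes: squares are the authors' shrunken values with their standard errors, circles the approximately unshrunken values with 95% intervals. All 9 intervals include 0, with Taar6 (-0.37) and Taar5 (-0.37) lowest and Taar9 (0.36) highest.

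Of the 9 tested members, 7 had negative and 2 positive log2 fold changes, where 48.9% of all genes tested were negative. Their median was -0.05, against 0.00255 over all genes tested and -0.02 over the 812 Olfr genes tested. The members share a locus and sequence and are not independent, so these are descriptions. Transcript length moved with the values: the rank correlation between length and the Wald statistic was 0.414 (Spearman) across the 15503 tested genes with a length. Genes are not independent replicates of one another. The 179 tested genes of 1000 to 1100 bases, the annotated length of the Taar transcripts, had -0.09 as their median log2 value. With the length trend subtracted, 3 of the 9 members were negative and their median was 0.03. Annotated Taar transcripts hold essentially the coding length alone, so this setting rests on annotated lengths, and the true ones may be longer. The part of length in the members' values was not tested further.

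The standard errors show how large a change would have been called. The smallest absolute Wald statistic among called genes was 3.56. At the members' unshrunken errors this equals a fold of 1.68 for Taar4, 1.69 for Taar2, 1.68 for Taar6 and 1.76 for Taar9. For Taar5 it equals a fold of 2.49 and for Taar3 a fold of 2.50. The fits implied a coefficient of variation between libraries of 22.7% to 39.9% for the members tested, of which counting error made up 16.6% to 41.5% of the variance. For 7 of the 9 members the shrinkage has a second solution with smaller errors. Under it the unshrunken value was 0.30 for Taar9 (95% interval -0.08 to 0.68) and -0.37 for Taar6. In bulk tissue, fewer neurons with a given receptor and less RNA per neuron cannot be told apart.

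Odorant receptors are the nearest family for comparison, since both are receptors of olfactory sensory neurons. Of 812 Olfr genes tested, 17 were called (2.09%), 5 higher and 12 lower in Apoe4. The smallest absolute log2 fold change among these 17 was 0.36 on the shrunken scale, and every Taar member lay below it. The log2 fold change of Taar6 was matched or passed downwards by 90 Olfr genes (11.1%), and that of Taar9 upwards by 39 (4.8%). The quartiles of the Olfr genes tested were -0.11 and 0.05. A difference between the families was not tested.

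**Figure D3:**
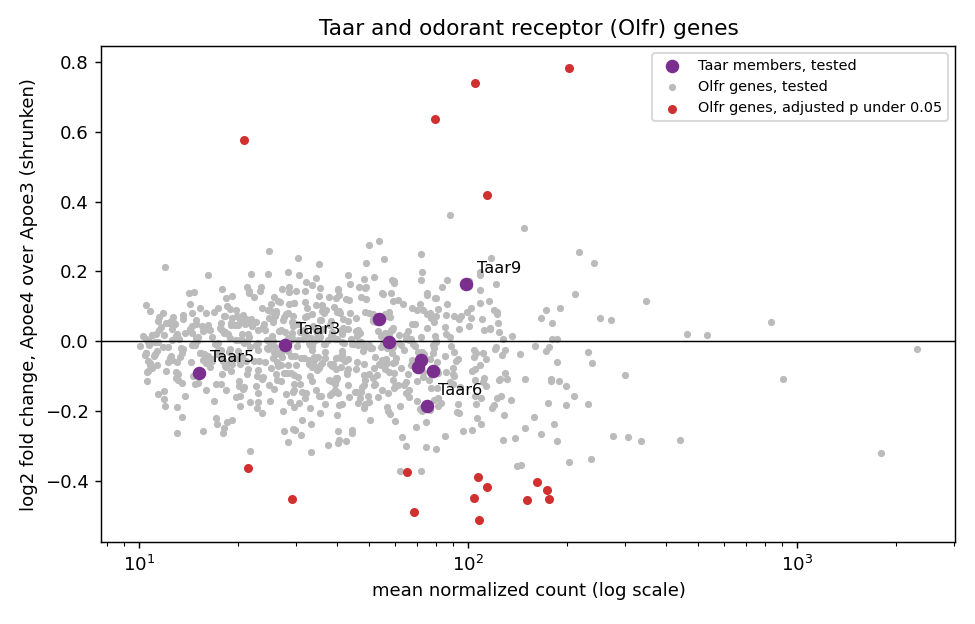
Shrunken log2 fold change, Apoe4 over Apoe3, against mean normalized count (log axis) for the 9 tested Taar genes (purple) and 812 tested Olfr genes (grey, or red where the adjusted p was under 0.05). The Taar genes run from -0.19 (Taar6) to 0.16 (Taar9), inside the cloud of Olfr genes that were not called.

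The table also holds 5 Taar genes outside the 10 members. Taar7f, which responds to N-methylpiperidine, had in the authors' deposited table a mean of 39.4 normalized counts and a log2 fold change of -0.20 there (standard error 0.10, DESeq2 p = 0.0433, adjusted p = 0.472). Its value was the lowest of the whole family and did not pass. Taar7e was at -0.10 (adjusted p = 0.798) and Taar8b at -0.08 (adjusted p = 0.788) in the authors' deposited DESeq2 results. Taar8a, at a mean of 4.26 normalized counts, was marked low. Taar1, which is known from brain rather than olfactory epithelium, was listed at 0.

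Genes beside the cluster showed no call either. RefSeq annotates 20 genes other than Taar genes within the cluster or 500 kb to either side, of which 9 were in the table and 6 were tested. None of the 6 passed the DESeq2 test, and none had an unadjusted p under 0.05, against 0.779% and 10.3% of all genes tested. At those shares, counts of 0 among 6 genes are not a result about the neighbours. The nearest tested gene on the low side was Vnn1, a pantetheinase; the authors' deposited table gives it a log2 fold change of 0.09 (adjusted p = 0.780). The nearest on the high side was Stx7, a syntaxin of endosomes; the authors' deposited table gives it 0.06 (adjusted p = 0.772). Of the 6 neighbours, Rps12, a ribosomal protein gene, was at -0.15 (adjusted p = 0.612) and the other 5 were positive.

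**Figure D4:**
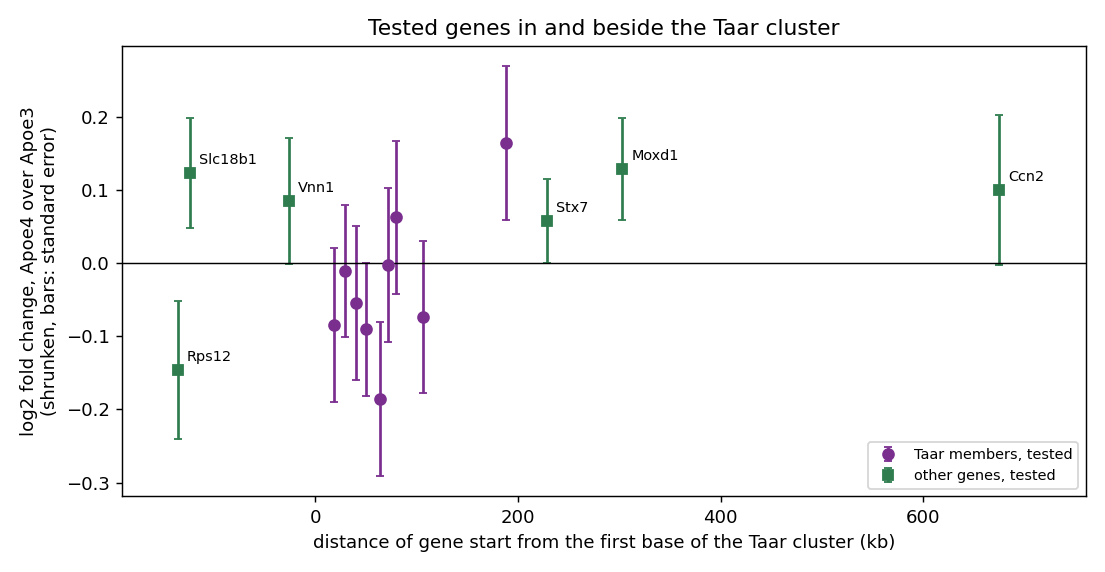
Shrunken log2 fold changes (Apoe4 over Apoe3, bars: standard error) of tested genes in and beside the Taar cluster, against the distance of each gene's start from the first base of the cluster in kb. The 9 Taar genes and 6 neighbours scatter on both sides of 0, from -0.19 (Taar6) to 0.16 (Taar9).

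Genes with which Taar receptors work in the neuron were looked at by the same test. Of 15 genes of the olfactory transduction cascade, all tested, none was called by the authors' DESeq2 test, against 0.779% of all genes tested. An unadjusted p under 0.05 was found for 2, against 10.3% of all genes tested. Near those shares, the counts are not a result about the cascade. The median log2 fold change of the 15 genes was -0.02. The smallest p belonged to Stoml3, a stomatin-like protein of olfactory neurons, at -0.13 (adjusted p = 0.431). By the authors' deposited table Gnal, the olfactory G protein subunit, was at 0.02 (adjusted p = 0.952) and Adcy3, the adenylyl cyclase, at -0.00625 (adjusted p = 0.987).

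Of 19 genes for receptor choice and trafficking, all tested, none was called, against 0.779% of all genes tested. Their median log2 fold change was 0.00697, and 1 had an unadjusted p under 0.05, against 10.3% of all genes tested. That gene was Ddit3, a transcription factor of the unfolded protein response, at -0.20 in the authors' deposited DESeq2 results (adjusted p = 0.359). By the authors' deposited table Lhx2, a homeodomain factor needed for receptor expression, was at -0.05 (adjusted p = 0.870), and Rtp1, which helps receptors reach the cell surface, at 0.00560 (adjusted p = 0.988).

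Enzymes that make or break down amines were measured through 19 genes, of which 16 were tested. None was called by the DESeq2 test, against 0.779% of all genes tested. Their median log2 fold change was 0.00984, and 3 had an unadjusted p under 0.05, against 10.3% of all genes tested. Aoc3, a copper amine oxidase, had the smallest p, and the authors' deposited table puts it at 0.26 (adjusted p = 0.303). The authors' deposited table puts Maob, which oxidises phenylethylamine, at 0.06 (adjusted p = 0.851).

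Markers of neuron stages and of other cells in the tissue are given beside the receptors, with values from the authors' deposited table (log2 fold change, DESeq2 adjusted p). Some of these genes are also in the transduction list. Of all genes tested, 0.324% were called higher and 0.455% lower in Apoe4, and 10.3% had an unadjusted p under 0.05. Of 13 mature neuron markers none was called and 1 had an unadjusted p under 0.05, with a median log2 fold change of -0.00739; Omp was at -0.06 (adjusted p = 0.828). Immature neurons had 1 of 10 markers higher, Dpysl3, a growth cone protein, at 0.24 (adjusted p = 0.0272), and a median of 0.06; it alone had an unadjusted p under 0.05. Of 9 globose basal and precursor markers 1 was higher, Sox4, a transcription factor of precursors, at 0.35 (adjusted p = 3.98e-04), with a median of 0.04 and no other unadjusted p under 0.05. Sustentacular cells, which support the neurons, had 2 of 10 markers lower and a median of -0.14. All 10 had negative values, and 6 of them had an unadjusted p under 0.05, against 10.3% of all genes tested. The 2 called were Aldh1a7, an aldehyde dehydrogenase, at -0.27 (adjusted p = 0.00172) and Cbr2, a carbonyl reductase, at -0.26 (adjusted p = 0.0421). Gland markers had 2 of 7 higher and a median of 0.08, and 3 had an unadjusted p under 0.05. They were the secreted proteins Bpifb4, at 0.34 with an adjusted p of 2.82e-04, and Bpifb1, at 0.43 with an adjusted p of 0.0031. The third, the mucin gene Muc5b, had a negative value of -0.18 (adjusted p = 0.476), and Bpifa1, the gland marker with the highest mean count, was at 0.00778 (adjusted p = 0.989).

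Of 9 erythroid markers 5 were tested and 4 were called lower in Apoe4, against 0.455% of all genes tested. Their median was -0.25 for the 5, all of which had an unadjusted p under 0.05, against 10.3% of all genes tested. The globin genes Hba-a1, Hba-a2, Hbb-bs and Hbb-bt were listed at a mean of 0. The authors' deposited table puts Alas2, the first enzyme of heme synthesis in red cells, at -0.46 (DESeq2 adjusted p = 0.00337). It puts Slc4a1, an anion exchanger of red cells, at -0.27 (adjusted p = 0.00509) and Car1, a carbonic anhydrase, at -0.25 (adjusted p = 0.0171). With the length trend subtracted, Dpysl3, Cbr2 and Car1 missed the threshold (adjusted p = 0.146, 0.306 and 0.176). In either direction 0.779% of all genes tested were called. No marker was called among 6 horizontal basal, 7 respiratory ciliated, 9 macrophage and 6 brain neuron markers tested by the authors with DESeq2. The unadjusted p was under 0.05 for 1, 0, 1 and 0 of these, and their median log2 fold changes were 0.00962, 0.10, -0.04 and -0.00451. The smallest p of each list belonged to Krt17, a keratin, at 0.19 (adjusted p = 0.473), Dnah5, a dynein of motile cilia, at 0.14 (adjusted p = 0.639), Aif1 at -0.22 (adjusted p = 0.439) and Camk2a, a neuronal kinase, at 0.14 (adjusted p = 0.678). The brain neuron markers Gad1, Slc17a7 and Slc32a1 had means of 152, 81.9 and 24.8 normalized counts but no p-value, so they were not tested. Summed marker levels per library could not be formed from one mean per gene, and the part of cell makeup in the Taar values was not tested.

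Each of the 4 Y-linked genes tested was lower in Apoe4, with log2 fold changes of -3.72 to -2.80 in the authors' deposited table. Xist, an X-linked gene, was at 6.41 and has no p-value there. A sex-linked difference thus accompanies genotype, and for the Taar genes the pair cannot be told apart.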

How the data were processed

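Reads were processed with STAR, featureCounts and DESeq2 on GRCm38, per the submitters' processing notes. Versions, settings, strandedness and annotation: not given in the sources used here. A single results table was deposited, with no values per library. Its signal column is each gene's normalized count averaged by the authors over all 10 libraries. The authors' log2 fold changes and log2 standard errors were shrunk towards 0 before they were deposited. The score the authors deposited is the Wald statistic, the fold divided by its error. The deposited p-values were adjusted by the authors with the Benjamini-Hochberg method over 16050 genes, those not marked low that have a p-value.

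The fold direction is not named in the table and was read from genes that hold just 1 read. Their means fall on 10 levels, of which 6 have positive and 4 negative folds, matching 6 Apoe4 and 4 Apoe3 libraries, so a positive fold is higher in Apoe4. Shrinkage was undone by comparing each error with the largest one, 0.105, and group means were solved from the mean and that fold. Where 2 solutions exist, the one with the larger error was used unless stated. The undoing of shrinkage was tested on simulated data in which the right solution was known. The choice between the 2 solutions was therefore not tested. Intervals at 95% are normal and approximate. The design called for a count test only if counts were at hand, so the tests are the authors'. Lengths came from GENCODE vM21, the lowess fraction was 0.3, and sequences came from GENCODE and RefSeq. Named genes were the Taar genes, called list members (at most 4 a list) or else the one with the smallest p, the nearest neighbours and Omp; Gnal, Adcy3, Lhx2, Rtp1, Maob, Acsm4, Ncam2, Gucy2d, Muc5b, Bpifa1 and Rps12 were added after their values were seen. A gene that the rule names is not reported here. Members and lists were chosen with earlier results of these data known. Analysis used Python 3.11.15, scipy 1.17.1, statsmodels 0.14.6 and Biopython 1.88. P-values measure the spread between libraries labelled as biological replicates.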

Additional observations from a re-analysis of the deposited data

How the results depend on the processing

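No Taar member was called under any of the 5 settings of the adjusted p: the authors' own, no filter on the mean, the trend with length or with mean count subtracted, and X and Y genes left out. The adjusted p ran from 0.445 (Taar9, length trend subtracted) to 0.998. The 6 tested neighbours also gave no call in these settings. With no filter or without X and Y genes the deposited p-values were only adjusted again. No member or tested neighbour had an unadjusted p under 0.05, so no call was possible in those settings. With the length trend subtracted the sign turned for Taar3 (0.0687), Taar4 (0.0256), Taar7a (0.0767) and Taar7d (0.00497), and the cause was not tested. That setting places the members by annotated length, which for them lacks untranslated parts. In that setting 6 of the 10 called genes of the other lists remained, and Car1, Cbr2 and Dpysl3 were among those that missed the threshold. The members' median log2 fold change kept its negative sign when unshrunken, centred on all genes or Olfr genes, without Taar7 and Taar8 members, or with Taar8c included (a setting chosen after seeing the data), from -0.11 to -0.03; it was 0.03 with the length trend subtracted. Levels per kb could hardly move with coding length (Taar9 from 94.3 to 94.6), because the annotated transcripts hold essentially the coding length alone. That setting therefore does not show what missing untranslated parts would change. No paired analysis was possible because the table has no values per library, and replicates could not be left out for the same reason. Depth limits Taar8c, with about 13.8 normalized counts in all, and Taar5, for which counting error made up 41.5% of the variance between libraries.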

Other observations

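Receptor zones and other chemosensory neurons were also looked at. Nqo1 and Acsm4, markers of the dorsal zone where most Taar neurons lie, were at log2 fold changes of 0.15 (DESeq2 adjusted p = 0.643) and -0.00677 (adjusted p = 0.988) in the authors' deposited table. The ventral zone markers Nrp2 and Ncam2 were at 0.13 (adjusted p = 0.487) and -0.01 (adjusted p = 0.977). Of 9 markers of other non-odorant-receptor neurons 6 were tested and none was called, against 0.779% of all genes tested. An unadjusted p under 0.05 was found for 1, against 10.3% of all genes tested. It was Car2, a carbonic anhydrase also found in red cells, at -0.18 (DESeq2 adjusted p = 0.313). Gucy2d, the receptor guanylyl cyclase of a small set of olfactory neurons, had a mean of 41.4 normalized counts, within the range of the Taar members, and a log2 fold change of 0.07 (adjusted p = 0.856) in the authors' deposited table.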
